A study of Mus musculus with 10 samples.

Results

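Potassium channel subunits are the proteins that form or modify the pores through which potassium leaves or enters a cell. The genes described here are those to which the array's annotation gives a single symbol made of Kcn, further letters and a closing number. They were 87 of the 19938 genes measured. They were represented by 90 of 35556 probe sets, since Kcna2, Kcnh8 and Kcnma1 each had 2, and the one with the highest mean stood for its gene. The mouse RefSeq gene table of assembly GRCm38.p6 holds 92 symbols of this form, and the others were not analysed here. The rule takes the Kcnip genes, whose products are calcium sensors that bind channels, and leaves out Kcnrg and Kcne1l, whose symbols end in letters.

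Each of 10 mouse thyroid tumours was hybridised to 1 Affymetrix whole-transcript array. The 5 anaplastic thyroid carcinomas (ATC) carried TPOCreER, BrafV600E and p53 -/-. The 5 papillary thyroid carcinomas (PTC) carried TPOCreER and BrafV600E, and both groups had a mixed C57BL/6;129SvJae background. TPOCreER is a Cre recombinase that is expressed in thyroid follicular cells and that tamoxifen activates, so the Braf allele is switched on in thyroid cells. The study asked what loss of p53 adds to a Braf-driven thyroid tumour, and the effects of histology and of p53 genotype cannot be told apart. The labels call the tumours biological replicates without saying whether each had its own animal, so the p-values measure the spread between these tumours. Age was not given in the labels, and p53 itself was not analysed here.

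All levels below are intensities on the log2 scale, all differences are those of ATC relative to PTC, and ± gives the SD over 5 tumours. A gene passed the test at a Benjamini-Hochberg adjusted p under 0.05 over all 19938 genes (limma), and intervals are 95% intervals of that fit. In whole tumour pieces, fewer cells of a type and less RNA per cell cannot be told apart. Among 9 measured thyroid follicular markers, 2 passed and both fell (22.2%, against falls in 9.72% of all genes). These were Tshr and Iyd. All 9 markers also belong to the list of iodide uptake genes below, so the 2 counts are not separate results. The mean level of the 9 markers was 6.78 to 8.34 in ATC tumours and 8.03 to 9.10 in PTC tumours.

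Thyrotropin acts on thyroid follicular cells through its receptor, Tshr, and iodide enters from the blood through the sodium-iodide symporter, Slc5a5, driven by the sodium gradient that the sodium pump maintains. Kcnq1 encodes a voltage-gated pore subunit, and the small Kcne proteins are single-span partners that change its gating. In mice, the channel of Kcnq1 and Kcne2 in the basolateral membrane of thyroid cells is needed for normal iodide uptake.

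Most potassium channel genes did not pass the test, and the largest differences were falls. Of the 87 genes, 14 passed (16.1%), against 21.2% of all genes. The 6 that rose in ATC were Kcnb2, Kcnn4, Kcnab1, Kcnk6, Kcnj10 and Kcnk13, 6.9% of the members against 11.5% of all genes. The 8 that fell were Kcnj15, Kcnk1, Kcnj16, Kcnmb1, Kcnq1, Kcnma1, Kcnc4 and Kcnip2, 9.2% against 9.72% of all genes. None of these shares exceeded that of all genes. Every ATC tumour was above every PTC tumour for 4 members (9.13% of all genes), and every ATC tumour was below every PTC tumour for 7 (7.74% of all genes). The median difference was −0.05 over the members and −0.02 over all genes, and 71 members (81.6%) lay within 0.3 of 0, against 73.5% of all genes. No filter on low values was applied, and 50 of the 87 genes had a mean under 7. Among genes with a mean of at least 6, 14 of 77 members (18.2%) and 25.5% of all genes passed, and with a mean of at least 7, 11 of 37 members (29.7%) and 31.4% of all genes.

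**Figure D1:**
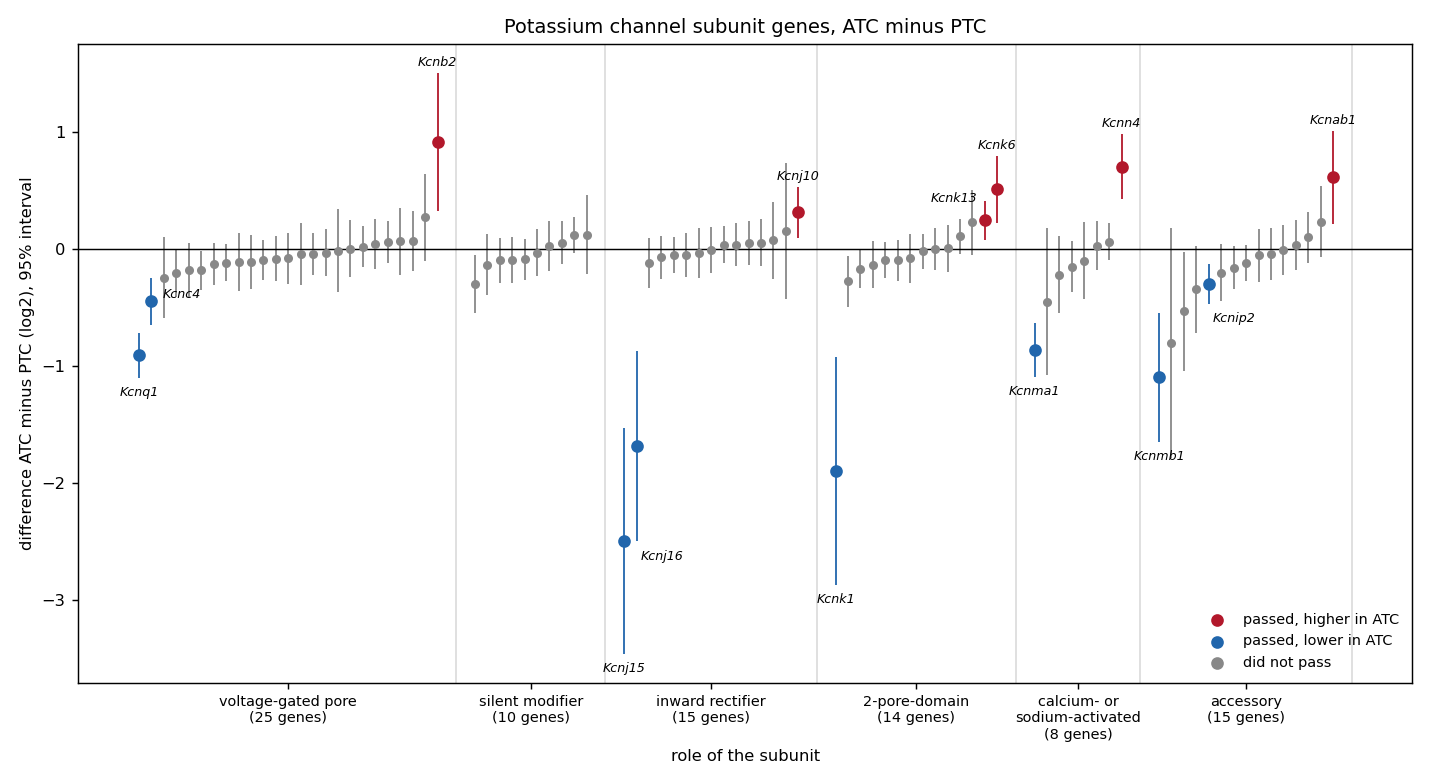
Difference ATC minus PTC on the log2 scale (vertical axis) with its 95% interval for the 87 potassium channel genes, grouped along the horizontal axis by the role of the subunit and ordered by size within each role; red points passed and were higher in ATC, blue points passed and were lower in ATC, and grey points did not pass. The falls of Kcnj15 (−2.49), Kcnk1 (−1.90) and Kcnj16 (−1.69) lie farthest from 0, and the 10 silent modifiers all lie within 0.3 of it.

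Kcnq1 fell in ATC by a similar amount in every tumour. Of the 4 Kcne genes that the rule takes, 0 passed, against 21.2% of all genes, and 4 genes are too few to differ from that share. All 4 differences were below 0, with a median of −0.18, against −0.02 over all genes. Kcne1 and Kcne2 had low probe set intensities, where a fall may show too small. Kcnq1 had 7.07, 7.30, 7.41, 7.12 and 7.16 in ATC tumours 1 to 5, against 8.02, 8.10, 8.18, 7.99 and 8.29 in PTC tumours 1 to 5 (probe set 10559276, chromosome 7). The groups did not overlap, and the spread was small in both. Its level averaged 7.21 ± 0.14 in ATC and 8.12 ± 0.12 in PTC, a difference of −0.91 (interval −1.10 to −0.71, adjusted p = 0.000123) and a 1.88-fold lower level in ATC. Leaving out any 1 tumour gave differences of −0.96 to −0.86. The antisense RNA gene Kcnq1ot1 overlaps Kcnq1 in the RefSeq table, and whether its signal reaches this probe set was not tested. The other measured Kcnq genes, Kcnq3 and Kcnq5, encode pore subunits known from neurons, and they differed by −0.21 (adjusted p = 0.152) and −0.01 (adjusted p = 0.967).

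Kcne2, the partner of Kcnq1 in thyroid cells, had 5.99, 5.98, 6.01, 6.09 and 5.67 in ATC tumours 1 to 5, against 6.24, 6.04, 6.12, 6.05 and 6.10 in PTC tumours 1 to 5. ATC tumour 5 was lowest, and the other tumours of both groups lay in a narrow band. The difference was −0.16 (interval −0.35 to 0.03, adjusted p = 0.225). Kcne3, which holds Kcnq1 channels open in mouse intestinal and airway epithelium, had 7.42, 7.69, 7.73, 7.91 and 7.55 in ATC tumours and 7.58, 8.62, 7.88, 7.86 and 8.09 in PTC tumours. PTC tumour 2 was the highest, and the groups overlapped. Its difference was −0.34 (interval −0.72 to 0.03, adjusted p = 0.187). Kcne1, the partner of Kcnq1 in heart and inner ear, had 5.68, 5.69, 5.86, 5.83 and 5.66 in ATC tumours and 6.02, 5.88, 5.70, 5.48 and 5.94 in PTC tumours, a difference of −0.06 (interval −0.28 to 0.17, adjusted p = 0.761). Kcne4, an inhibitory partner, had 6.48, 6.46, 6.42, 6.32 and 6.13 in ATC tumours and 6.57, 6.82, 6.28, 6.44 and 6.71 in PTC tumours, a difference of −0.20 (interval −0.44 to 0.04, adjusted p = 0.234). The groups overlapped in both genes. The 4 intervals include 0 and reach down to −0.28 for Kcne1, −0.35 for Kcne2, −0.72 for Kcne3 and −0.44 for Kcne4. For each gene, falls smaller than its own limit are thus not shown to be absent. Averaged over all tumours, Kcne1 had 5.77, Kcne2 6.03 and Kcne4 6.46, against 7.83 for Kcne3 and 7.66 for Kcnq1. The lower quartile of the array intensities ran from 6.02 in ATC tumour 5 to 6.19 in ATC tumour 4. At such low intensities a fall may show too small, so the test cannot decide whether Kcne1 or Kcne2 fell as Kcnq1 did. The sign of the Kcne1 difference turned with array weights (0.0069). Kcne1l, which the rule leaves out, averaged 7.09 in both groups and did not pass.

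**Figure D2:**
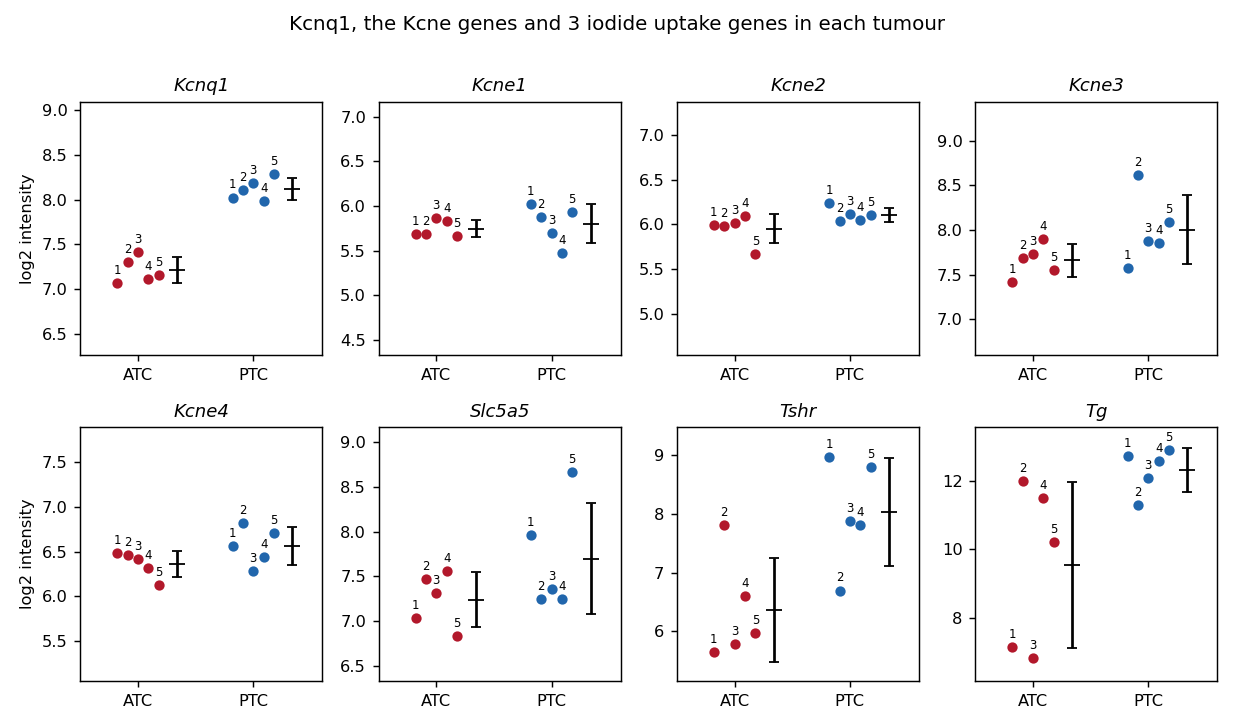
Log2 intensity (vertical axis) of Kcnq1, the 4 Kcne genes and 3 genes of thyroid iodide uptake in ATC tumours (left, red) and PTC tumours (right, blue), with each point numbered by replicate, bars giving the mean and SD, and vertical ranges that differ between panels. Kcnq1 is separate between the groups with little spread, while Tg spans 6.84 to 12.001 among the ATC tumours.

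Beside them, part of the genes of iodide uptake, hormone synthesis and thyroid identity fell. Of 18 measured members of that list, 0 rose and 5 fell (27.8%, against 9.72% of all genes), with a median difference of −0.39, against −0.02 over all genes. The 5 were the deiodinase gene Iyd (−2.33, adjusted p = 0.0299), the anion transporter genes Slc26a7 (−1.96, adjusted p = 0.0235) and Slc26a4 (−0.69, adjusted p = 0.0473), Tshr (−1.67, adjusted p = 0.0295) and the homeobox gene Hhex (−1.25, adjusted p = 0.000628). Tshr had 5.66, 7.81, 5.78, 6.60 and 5.96 in ATC tumours 1 to 5, against 8.97, 6.69, 7.89, 7.80 and 8.79 in PTC tumours 1 to 5. ATC tumour 2 lay among the PTC tumours, which it did not for Kcnq1. Slc5a5 had 7.03, 7.47, 7.32, 7.56 and 6.83 in ATC tumours and 7.97, 7.25, 7.36, 7.25 and 8.67 in PTC tumours, a difference of −0.46 (interval −1.04 to 0.12, adjusted p = 0.264). PTC tumours 5 and 1 were the highest, and the other tumours of both groups overlapped. Thyroglobulin, Tg, had 7.17, 12.001, 6.84, 11.48 and 10.23 in ATC tumours and 12.72, 11.28, 12.08, 12.58 and 12.88 in PTC tumours. Its ATC tumours reached the PTC range in tumours 2 and 4 and lay far below it in tumours 1 and 3 (difference −2.76, adjusted p = 0.0583). The lineage factor gene Pax8 (−1.01, adjusted p = 0.0564) and the chloride channel gene Ano1 (−0.13, adjusted p = 0.846) did not pass either. Of the 5 calls, that of Hhex alone held whichever single tumour was left out. The number that passed was 1 without PTC tumour 4 or 5 or ATC tumour 1, 2 without PTC tumour 1 or ATC tumour 3 or 5, and 3 without PTC tumour 3. Tg passed without ATC tumour 2 or 4 and among genes with a mean of at least 7 (adjusted p = 0.0462). Pax8 passed without ATC tumour 2, after a repeated quantile normalization (adjusted p = 0.0481) and among genes with a mean of at least 7 (adjusted p = 0.0447). The sign of the Ano1 difference turned without PTC tumour 1, ATC tumour 4 or ATC tumour 5 and with array weights (0.027 to 0.13).

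Among the inward rectifiers, which pass potassium more easily into the cell than out of it and set the resting potential, 2 of 15 fell and 1 rose. These were 13.3% and 6.67% of them, against 9.72% and 11.5% of all genes. Kcnj15 showed the largest fall of the 87 genes, with 6.91, 8.79, 6.44, 9.09 and 7.81 in ATC tumours 1 to 5, against 10.28, 10.28, 10.08, 10.49 and 10.38 in PTC tumours 1 to 5 (probe set 10437151, chromosome 16). PTC tumours were nearly equal, and every ATC tumour lay below them by a different amount. The difference was −2.49 (interval −3.46 to −1.53, adjusted p = 0.00241), 5.64-fold lower in ATC. Kcnj16 encodes a subunit that conducts mainly when assembled with the Kcnj10 or Kcnj15 product. It had 6.04, 7.39, 5.70, 6.31 and 5.86 in ATC tumours and 8.56, 6.83, 7.79, 7.99 and 8.57 in PTC tumours. ATC tumour 2 lay above PTC tumour 2, and all other ATC tumours lay below every PTC tumour. Its difference was −1.69 (interval −2.50 to −0.87, adjusted p = 0.00802), 3.22-fold lower in ATC. Kcnj10, the remaining one of these partner subunits and known from glia and kidney, had 6.72, 6.98, 6.83, 7.17 and 6.72 in ATC tumours and 6.49, 6.62, 6.42, 6.63 and 6.70 in PTC tumours. The groups were separate by a narrow margin (difference 0.31, interval 0.10 to 0.53, adjusted p = 0.0439). That call ended without PTC tumour 1, 2, 3 or 4 or ATC tumour 2, 3 or 4 (differences 0.24 to 0.33, adjusted p 0.0615 to 0.107).

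Among the 2-pore-domain channels, which carry a background potassium current, Kcnk1 fell, Kcnk6 and Kcnk13 rose, and the other 11 of 14 did not pass. Those that passed were 21.4% of the 14, against 21.2% of all genes. Kcnk1 had 6.97, 9.37, 7.31, 9.24 and 9.14 in ATC tumours 1 to 5, against 10.28, 10.16, 10.22, 10.31 and 10.54 in PTC tumours 1 to 5 (probe set 10576581, chromosome 8). The groups did not overlap, and ATC tumours 1 and 3 lay far below the other ATC tumours. The difference was −1.90 (interval −2.87 to −0.93, adjusted p = 0.0108), 3.73-fold lower in ATC.

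The start site windows of Kcnj15 and Kcnk1 are shown because these genes had the largest falls. Each runs from 250 bases before to 50 after a RefSeq start site (GRCm38.p6), and the start sites used in these tumours were not measured. Capitals mark every match, on either strand, to the GC box (GGGCGG), the TATA box (TATAAA) or the Nkx2-1 core (CTCAAG). The AP-1 site (TGANTCA) and the CArG box were also searched for, with 0 matches in the windows shown.
Kcnj15, chr16:95257308-95257607, plus strand: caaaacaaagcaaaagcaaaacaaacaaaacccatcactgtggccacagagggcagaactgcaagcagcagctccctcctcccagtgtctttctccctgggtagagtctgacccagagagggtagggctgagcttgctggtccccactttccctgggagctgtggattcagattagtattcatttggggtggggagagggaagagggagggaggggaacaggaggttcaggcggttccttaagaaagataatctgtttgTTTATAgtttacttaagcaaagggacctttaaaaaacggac
Kcnk1, chr8:125994852-125995151, plus strand: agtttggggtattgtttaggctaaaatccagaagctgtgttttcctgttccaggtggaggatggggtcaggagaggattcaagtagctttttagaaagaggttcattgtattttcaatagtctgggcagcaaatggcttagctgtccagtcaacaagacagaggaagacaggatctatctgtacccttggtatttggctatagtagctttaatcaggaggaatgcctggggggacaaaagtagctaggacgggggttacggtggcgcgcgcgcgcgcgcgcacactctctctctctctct
The Kcnj15 window holds 1 match to the letters of the TATA box, and the Kcnk1 window holds 0 matches. The Kcnj15 match is on the opposite strand and begins at base 10 after the start site. Of 32851 such windows of all genes, 35.7% hold a GC box, 13.6% a TATA box, 15.9% the Nkx2-1 core, 7.81% an AP-1 site and 1.63% a CArG box. There were 91 windows for 66 of the 87 members, and of these 47.3% hold a GC box, 5.49% a TATA box, 9.89% the Nkx2-1 core, 4.4% an AP-1 site and 0 a CArG box. Of the 14 genes that passed, 11 had a window; the others were Kcnb2, Kcnk6 and Kcnq1.

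Kcnj15 and Kcnk1 had the largest SDs among the ATC tumours of the 87 genes. Kcnj15 averaged 7.81 ± 1.15 in ATC and 10.30 ± 0.15 in PTC, and Kcnk1 averaged 8.40 ± 1.16 in ATC and 10.30 ± 0.14 in PTC. From high to low, the ATC tumours ran 4, 2, 5, 1, 3 for Kcnj15 and 2, 4, 5, 3, 1 for Kcnk1. They ran 2, 4, 5, 1, 3 for Tg and 4, 2, 5, 1, 3 for Atp1b1, a sodium pump beta subunit gene. ATC tumours 1 and 3 were thus the lowest in these 4 genes. They were also the lowest in Tshr, Pax8, Nkx2-1, Iyd and Hhex. In the other measured iodide uptake genes ATC tumours 1 and 3 were not together the lowest. Among those were Slc26a7, Slc26a4, Ano1 and the follicular markers Slc5a5, Foxe1, Dio1 and Duox2. Kcnj16, the third in size of fall, did not have ATC tumours 1 and 3 lowest, since its ATC tumours ran 2, 4, 1, 5, 3 with an SD of 0.67. Nor did Kcnq1, whose ATC tumours ran 3, 2, 5, 4, 1 within a range of 7.07 to 7.41. The SD was larger in ATC for 62.1% of the potassium channel genes and for 68.6% of all genes. The part that the follicular cell content of the ATC tumours has in the falls of Kcnj15 and Kcnk1 was not tested.

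**Figure D3:**
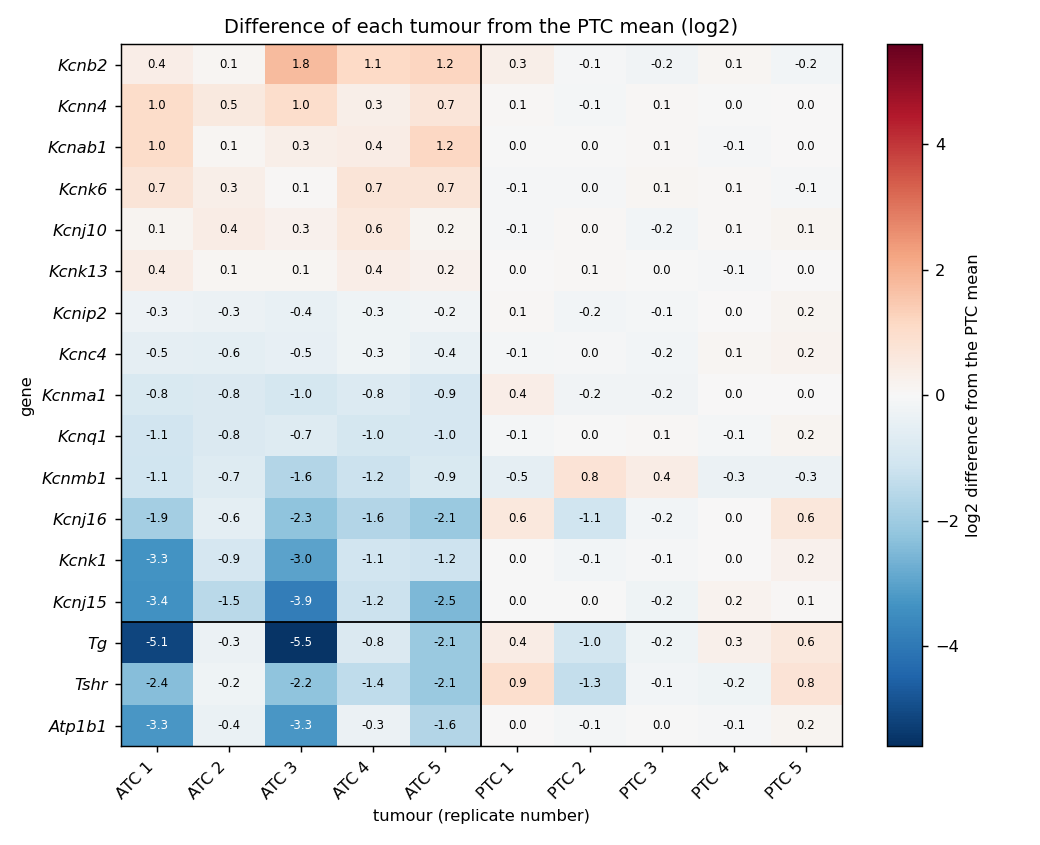
Log2 difference of each tumour (columns, ATC left of the line and PTC right) from the PTC mean, for the 14 potassium channel genes that passed (above the line) and for Tg, Tshr and Atp1b1 (below it), with blue for lower, red for higher and the value in each cell. ATC tumours 1 and 3 are lowest for Kcnj15, Kcnk1, Tg, Tshr and Atp1b1. ATC tumours 3 and 5 are lowest for Kcnj16, while the Kcnq1 and Kcnma1 rows are even across the ATC tumours.

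Both the pore gene and a beta subunit gene of the large-conductance calcium-activated channel fell in ATC. Kcnma1 encodes the pore, which opens with calcium and voltage together. It had 6.70, 6.74, 6.54, 6.75 and 6.61 in ATC tumours 1 to 5, against 7.89, 7.32, 7.34, 7.55 and 7.56 in PTC tumours 1 to 5. The groups were separate (difference −0.86, interval −1.10 to −0.63, adjusted p = 0.000368), with a 1.82-fold lower level in ATC. Its other, dim probe set averaged 5.03 ± 0.20 in ATC and 5.20 ± 0.22 in PTC and did not pass (adjusted p = 0.463 over all probe sets). With the mean of both probe sets the Kcnma1 difference was −0.51 and still passed. Kcnmb1, the beta subunit gene of smooth muscle, had 6.86, 7.26, 6.35, 6.79 and 7.12 in ATC tumours and 7.48, 8.74, 8.38, 7.64 and 7.64 in PTC tumours. Again every ATC tumour lay below every PTC tumour, and PTC tumours 2 and 3 were the highest. Its difference was −1.10 (interval −1.65 to −0.55, adjusted p = 0.00971), 2.14-fold lower in ATC. The other beta subunit genes, Kcnmb2, Kcnmb3 and Kcnmb4, differed by −0.12, −0.01 and 0.10, and 0 of the 3 passed.

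Kcnmb1 lies inside the span of Kcnip1 on chromosome 11 in the RefSeq table. Kcnip1, a calcium sensor gene of voltage-gated channels, had 6.96, 7.12, 6.47, 8.56 and 6.87 in ATC tumours and 6.92, 9.08, 8.69, 7.59 and 7.72 in PTC tumours. PTC tumours 2 and 3 were the highest for it too, and both genes ran 2, 3, 5, 4, 1 from high to low in PTC. Its difference of −0.80 did not pass (interval −1.79 to 0.18, adjusted p = 0.246), and whether the probe sets of these genes share signal was not tested. Of 6 smooth muscle markers 0 rose and 1 fell (16.7%, against 9.72% of all genes). The 1 that fell was the myosin gene Myh11 (−0.52, adjusted p = 0.00423). The mean level of these markers was 7.33 to 7.99 in ATC tumours and 7.59 to 7.997 in PTC tumours, and their part in the falls of Kcnma1 and Kcnmb1 was not tested. Kcnab1, Kcnb2, Kcnj15, Kcnk13 and Kcnma1 overlap predicted or clone-named genes in the RefSeq table, and a share of their signal from those was not tested either.

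The start site windows of the pore and beta subunit genes are shown because both fell, with the same motifs in capitals.
Kcnma1, chr14:24004156-24004455, minus strand: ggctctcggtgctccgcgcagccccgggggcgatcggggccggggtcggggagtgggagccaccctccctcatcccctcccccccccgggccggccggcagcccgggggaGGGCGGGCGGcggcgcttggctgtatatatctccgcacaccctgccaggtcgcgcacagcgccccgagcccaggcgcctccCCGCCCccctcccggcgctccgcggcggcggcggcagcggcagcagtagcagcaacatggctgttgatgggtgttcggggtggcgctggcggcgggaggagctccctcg
Kcnmb1, chr11:33962763-33963062, plus strand: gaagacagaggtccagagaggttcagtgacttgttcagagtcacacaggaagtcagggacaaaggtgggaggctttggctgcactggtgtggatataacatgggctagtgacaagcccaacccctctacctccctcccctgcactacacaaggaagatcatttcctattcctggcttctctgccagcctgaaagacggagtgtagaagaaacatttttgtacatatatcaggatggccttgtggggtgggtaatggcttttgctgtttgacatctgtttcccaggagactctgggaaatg
The Kcnma1 window holds 3 GC boxes, of which 2 overlap, and 78.0% of its bases are G or C. The Kcnmb1 window holds 0 matches, and 49.7% of its bases are G or C.

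Gamma subunit genes of the same channel stood in a list of channel partners that the Kcn rule does not take. Lrrc26, a gamma subunit gene of secretory epithelia, had 7.001, 6.99, 7.12, 7.40 and 6.64 in ATC tumours 1 to 5, against 7.42, 7.42, 7.36, 7.48 and 7.94 in PTC tumours 1 to 5. ATC tumour 4 overlapped the PTC tumours and the other ATC tumours lay below them (difference −0.49, adjusted p = 0.033). Lrrc55 fell by 0.61 (SE 0.15, adjusted p = 0.0136), Lrrc52 fell by 0.32 (SE 0.10, adjusted p = 0.0397), and Lrrc38 differed by −0.13 (adjusted p = 0.39). The Lrrc26 call ended without PTC tumour 1, 4 or 5 or ATC tumour 1, 2 or 5 (adjusted p 0.0518 to 0.0649), and that of Lrrc52 without PTC tumour 1, 2, 4 or 5 or ATC tumour 1, 3 or 5 (adjusted p 0.0667 to 0.0883). In the whole partner list 6 of 23 members fell (26.1%, against 9.72% of all genes) and 0 rose, with a median of −0.11. The other falls were those of the ubiquitin ligase gene Nedd4l, which acts on Kcnq1 channels (−0.57, adjusted p = 0.00857), the anchoring protein gene Akap9, which tethers kinase to cardiac Kcnq1 channels (−0.40, adjusted p = 0.00757), and the scaffold gene Dlg1 (−0.49, adjusted p = 0.00697). Slc5a3, a myo-inositol transporter gene, had the largest difference of the list and did not pass (0.80, adjusted p = 0.113), though it did with array weights (0.84, adjusted p = 0.0353).

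Kcnc4 fell and Kcnb2 rose among the voltage-gated pore subunits. With Kcnq1 they were the 3 of 25 that passed (12%, against 21.2% of all genes). Kcnc4, a gene of fast-inactivating channels, had 7.01, 6.95, 7.05, 7.26 and 7.09 in ATC tumours 1 to 5, against 7.40, 7.47, 7.36, 7.63 and 7.73 in PTC tumours 1 to 5. The groups were separate (difference −0.45, interval −0.65 to −0.25, adjusted p = 0.00497). Kcnb2, a delayed rectifier gene, had 6.62, 6.37, 8.01, 7.37 and 7.46 in ATC tumours and 6.57, 6.17, 6.06, 6.37 and 6.08 in PTC tumours. ATC tumours 3, 4 and 5 were high, and ATC tumours 1 and 2 lay at or near the PTC range (difference 0.91, interval 0.32 to 1.50, adjusted p = 0.0321). The Kcnb2 call ended without PTC tumour 2, 3, 4 or 5 or ATC tumour 3, 4 or 5 (differences 0.70 to 0.94, adjusted p 0.0504 to 0.0736). None of the 8 Kcna genes, 3 Kcnd genes or 7 Kcnh genes passed, and the largest differences there were those of Kcna6 (−0.18), Kcnd2 (−0.13) and Kcnh2, a cardiac rectifier gene (0.27). Of the 10 silent modifiers, which alter other channels but form no channel alone, 0 passed in limma and 1 had an unadjusted p under 0.05. They lay between −0.30 (Kcng4) and 0.12 (Kcnf1), and the sign of Kcnf1 turned without ATC tumour 1 (−0.023). Over all 87 genes, 20 had an unadjusted p under 0.05 (23.0%), against 32.7% of all genes.

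Among the auxiliary subunits of voltage-gated channels, 1 of 3 Kcnab genes rose and 1 of 4 Kcnip genes fell. Over all genes, 11.5% rose and 9.72% fell. Kcnab1, a cytoplasmic beta subunit gene, had 8.02, 7.12, 7.34, 7.44 and 8.19 in ATC tumours 1 to 5, against 6.996, 6.98, 7.06, 6.95 and 7.05 in PTC tumours 1 to 5. The groups were separate, with ATC tumours 1 and 5 highest and PTC tumours nearly equal (difference 0.61, interval 0.21 to 1.01, adjusted p = 0.0334). That call ended without any 1 of the 5 PTC tumours and without ATC tumour 1 or 5 (differences 0.47 to 0.63, adjusted p 0.0544 to 0.0758). Kcnip2, the calcium sensor gene of the cardiac transient outward current, had 6.10, 6.04, 5.95, 6.11 and 6.16 in ATC tumours and 6.43, 6.21, 6.26, 6.40 and 6.54 in PTC tumours. It was lower in every ATC tumour by a small amount (difference −0.30, interval −0.47 to −0.13, adjusted p = 0.0185), and the call ended with quantile normalization applied once more (adjusted p = 0.0514). Kcnab2 (0.23, adjusted p = 0.279), Kcnab3 (−0.04), Kcnip3 (−0.53, adjusted p = 0.133) and Kcnip4 (0.04) did not pass, nor did Kcnip1, given above.

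Of the 6 rises, those of Kcnn4 and Kcnk6 passed whichever single tumour was left out. Kcnn4 encodes the intermediate-conductance calcium-activated channel, known from T cells, red cells, macrophages and secretory epithelia. It had 8.68, 8.20, 8.68, 7.99 and 8.33 in ATC tumours 1 to 5, against 7.76, 7.55, 7.73, 7.64 and 7.68 in PTC tumours 1 to 5. The lowest ATC tumour lay above the highest PTC tumour (difference 0.71, interval 0.42 to 0.99, adjusted p = 0.00282), a 1.63-fold higher level in ATC. Kcnk6, whose channel carries potassium efflux in mouse macrophages, had 8.29, 7.88, 7.65, 8.31 and 8.31 in ATC tumours and 7.50, 7.53, 7.70, 7.65 and 7.51 in PTC tumours. ATC tumour 3 lay within the PTC range (difference 0.51, interval 0.23 to 0.80, adjusted p = 0.0167). Kcnk13, a gene of the tonic potassium channel of mouse microglia, had 7.52, 7.19, 7.20, 7.44 and 7.31 in ATC tumours and 7.10, 7.15, 7.06, 7.02 and 7.12 in PTC tumours. The groups were separate by a narrow margin (difference 0.24, adjusted p = 0.0449). That call ended without any 1 of the 5 PTC tumours and without ATC tumour 1, 4 or 5 (differences 0.20 to 0.26, adjusted p 0.0608 to 0.105). The number of rises was 2 without PTC tumour 2, 3 or 4, and 3 without PTC tumour 1 or 5 or ATC tumour 4 or 5.

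Markers of macrophages were also higher in ATC. All 8 macrophage markers rose, against 11.5% of all genes. Their mean level was 10.71 to 11.37 in ATC tumours and 8.60 to 9.35 in PTC tumours. Of 5 T cell markers 0 rose and 3 fell (60%, against 9.72% of all genes). The T cell mean levels were 6.75 to 7.42 in ATC tumours and 7.43 to 7.87 in PTC tumours. Of 5 mast cell markers 3 rose (60%, against 11.5% of all genes). The mast cell mean levels were 5.73 to 7.54 in ATC tumours and 5.85 to 6.005 in PTC tumours. Array intensities have no true 0, so the absence of a marker cannot be read from them. The part of these cells in the rises of Kcnn4, Kcnk6 and Kcnk13 was not tested.

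**Figure D4:**
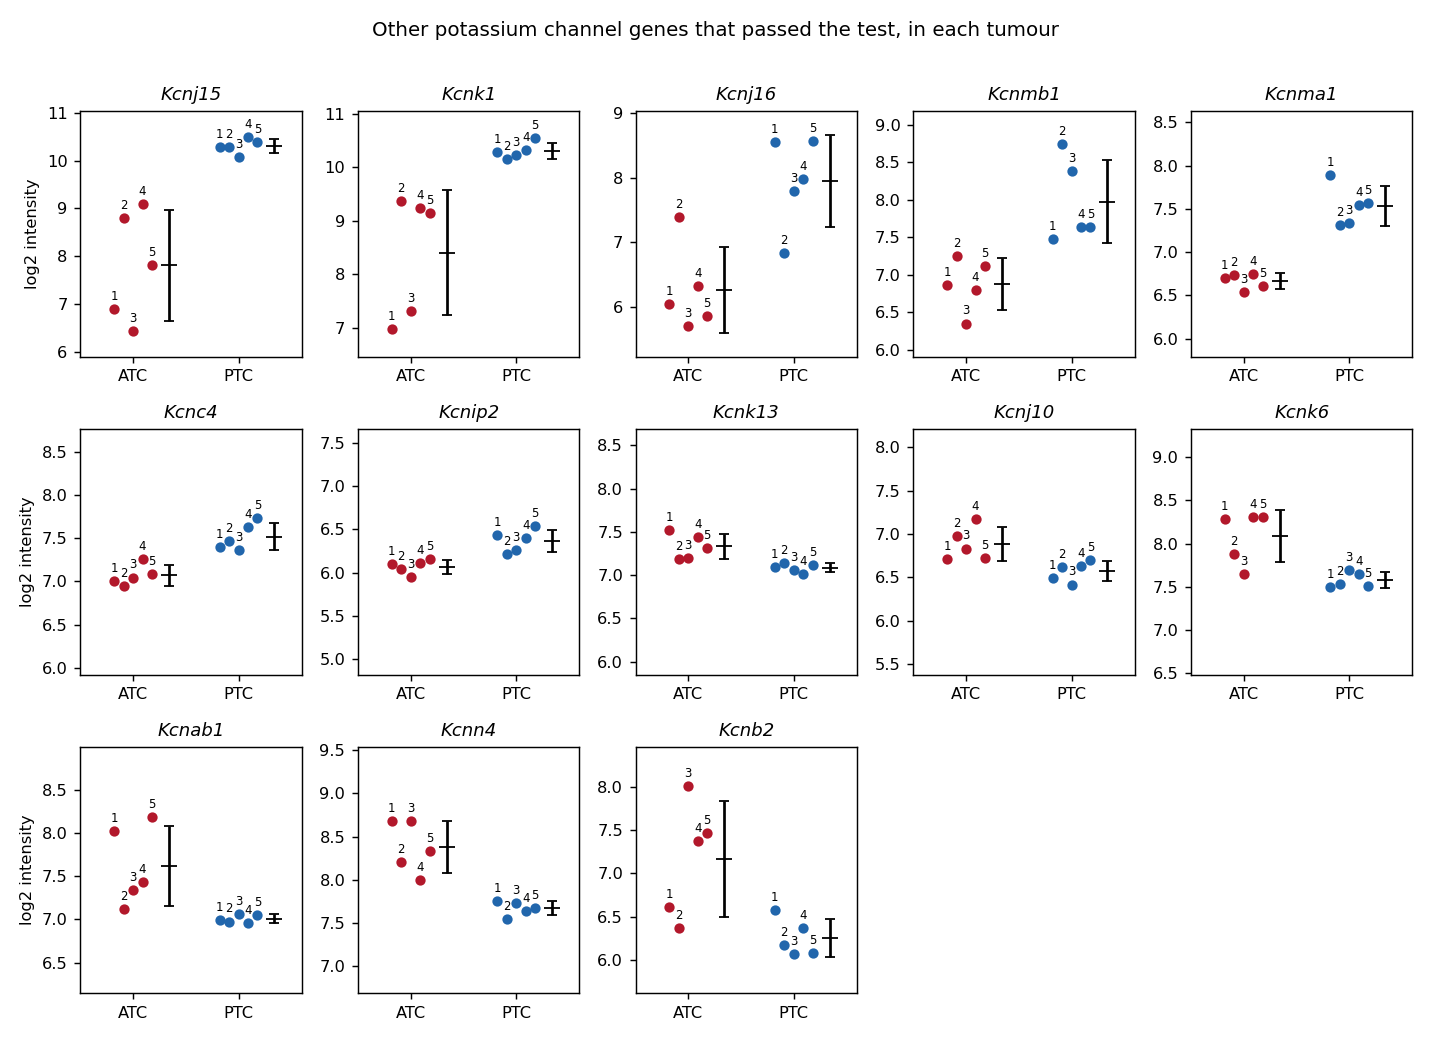
Log2 intensity (vertical axis) of the 13 potassium channel genes other than Kcnq1 that passed, in ATC tumours (left, red) and PTC tumours (right, blue), with points numbered by replicate and bars giving the mean and SD. Panels run from the largest fall, Kcnj15 (−2.49), to the largest rise, Kcnb2 (0.91), and their vertical ranges differ.

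Several potassium channel genes with high probe set intensities did not pass. Kcnj13, an inward rectifier gene of epithelia such as the retinal pigment epithelium, averaged 9.32 ± 0.14 in ATC and 9.35 ± 0.17 in PTC (difference −0.03, interval −0.25 to 0.18). Its sign turned without PTC tumour 2 or ATC tumour 2 and with arrays centred on their medians (0.0079 to 0.023). Gigyf2 overlaps Kcnj13 in the RefSeq table, and whether its signal reaches the Kcnj13 probe set was not tested. Kcnj8, the pore gene of the vascular channel that ATP closes, averaged 8.30 ± 0.13 in ATC and 8.25 ± 0.12 in PTC (difference 0.05, interval −0.13 to 0.24), and its regulatory partner Abcc9 differed by −0.40 (adjusted p = 0.126). Kcna3, the main voltage-gated channel gene of T cells, averaged 8.36 ± 0.26 in ATC and 8.40 ± 0.13 in PTC (difference −0.04, interval −0.31 to 0.22), and this sign turned without ATC tumour 4 (0.04). Kcnn3, a small-conductance calcium-activated channel gene, differed by −0.22 (interval −0.55 to 0.11), and the silent modifier gene Kcng1 by 0.05 (interval −0.13 to 0.24). Kcnt2, a sodium-activated channel gene, had 7.45, 6.57, 5.70, 6.08 and 5.89 in ATC tumours and 6.67, 6.38, 7.03, 6.94 and 6.93 in PTC tumours. ATC tumour 1 was the highest of all, and the groups overlapped. The difference of −0.45 (adjusted p = 0.314) passed without that tumour (−0.73, adjusted p = 0.0209).

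In 12 pairs, potassium channel genes lay side by side or with at most 3 other protein-coding genes between them. In 4 pairs 1 gene passed, and in 8 neither did, while 21.2% of all genes passed. The share among neighbouring pairs of all genes was not computed, so the counts cannot show whether neighbours behave alike. Kcna2 and Kcna1 stand in more than 1 pair. On chromosome 16, Kcnj15 fell, and its neighbour Kcnj6 differed by −0.05 (adjusted p = 0.671). On chromosome 11, Kcnj16 fell, and its neighbour Kcnj2 differed by 0.16 (adjusted p = 0.736). On chromosome 6, Kcna5, Kcna1 and Kcna6 lie side by side and differed by 0.04, −0.12 and −0.18, and 0 of the 3 passed.

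Genes of the sodium pump and of cation chloride cotransport, which move potassium across the same membranes, were taken as a further list. Of 19 measured members 6 fell (31.6%, against 9.72% of all genes) and 1 rose, with a median of −0.13. Atp1b1 had 9.42, 12.30, 9.41, 12.33 and 11.03 in ATC tumours 1 to 5, against 12.69, 12.58, 12.66, 12.59 and 12.84 in PTC tumours 1 to 5. Every ATC tumour lay below every PTC tumour, by little in ATC tumours 2 and 4 (difference −1.77, interval −2.98 to −0.57, adjusted p = 0.0402). That call ended without any 1 of the 5 PTC tumours and without ATC tumour 1, 3 or 5 (adjusted p 0.0667 to 0.0824). Slc12a2, the sodium-potassium-chloride cotransporter gene of secretory epithelia, had 11.13, 11.39, 11.07, 10.72 and 10.40 in ATC tumours and 11.87, 12.05, 12.08, 12.10 and 11.92 in PTC tumours. The groups were separate (difference −1.07, interval −1.41 to −0.72, adjusted p = 0.000953). The pump regulator gene Fxyd3 fell by 1.44 (SE 0.32, adjusted p = 0.0083), and its relatives Fxyd1 (−0.77, adjusted p = 0.018) and Fxyd4 (−0.52, adjusted p = 0.0315) and the pump subunit gene Atp1a4 (−0.33, adjusted p = 0.0385) also fell. The Fxyd1 call ended with the replicate number as a block (adjusted p = 0.0503) and with array weights (adjusted p = 0.0547). The Fxyd4 call ended without PTC tumour 1, 4 or 5 or ATC tumour 1, 3 or 5 (adjusted p 0.0592 to 0.0775). That of Atp1a4 ended without PTC tumour 1, 2 or 3 or ATC tumour 1, 3, 4 or 5 (adjusted p 0.056 to 0.0859). The member that rose was the pump beta subunit gene Atp1b2 (0.81, adjusted p = 0.0115). The 7 that passed became 4 without PTC tumour 1 or ATC tumour 1, 3 or 5.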

How the data were processed

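The deposited table holds 1 value per probe set and array, read from their range as log2 intensities, and the values were tested as the authors deposited them. Per the submitters' processing notes, the tools were Affymetrix Power Tools and limma. Their versions and settings, and the build, were not given in the sources used here. Of the probe sets, 21789 had 1 symbol, 1621 several and 12146 none in the platform annotation.

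ATC was set against PTC, grouped by the sample titles, with limma 3.58.1 (lmFit and eBayes, R 4.3.3), without covariates, block or filter, and the procedure was tested on simulated data. No detection calls were used, so a dim gene may show too small a difference, and ATC tumour 5 had the widest distribution of the 10 arrays. Members, lists and naming rule were chosen with earlier results of these data known. The rule named Kcnq1, the Kcne genes, the 10 largest rises and falls that passed, the 8 highest intensities, the largest difference of each family, 6 thyroid genes and the 3 largest differences per list; all other genes, and the motifs, were chosen after values were seen. Of the 10 marker lists, those not described above gave 0 of 10 skeletal muscle, 0 of 2 parathyroid, 2 of 6 endothelial (falls), 2 of 3 C cell (falls) and 1 of 4 nerve markers (a rise). Over all genes, 21.2% passed. The alternatives were averaging the probe sets per gene, testing all probe sets, a replicate block, 2 filters, quantile normalization again, median centring, a variance trend together with robust estimation, array weights, a skeletal muscle covariate and each tumour left out. Python 3.11.15, numpy 2.4.6, pandas 2.3.3 and matplotlib 3.10.9 were used for tables and figures.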

Additional observations from a re-analysis of the deposited data

Results flagged for a closer look

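In 9 of 122 groups of 5 tumours among 61 named genes, 1 tumour stood apart from the others by more than 0.71 of the group's whole range, and chance gives about 1 in 20 such groups. In ATC, tumour 5 was low for Kcne2 (5.67, others 5.98 to 6.09) and Kcnu1, a channel gene of sperm (5.59, others 5.77 to 5.81), and tumour 2 was high for Fxyd1 (8.60, others 7.85 to 7.99). In PTC, tumour 2 was high for Kcnn3 (9.002, others 8.37 to 8.52) and low for Kcnf1 (6.004, others 6.28 to 6.35) and Lrrc55 (7.36, others 7.64 to 7.73). PTC tumour 1 was high for Kcns2 (5.54, others 5.15 to 5.26), PTC tumour 5 was high for Lrrc26 (7.94, others 7.36 to 7.48), and PTC tumour 3 was low for Kcnk5 (6.71, others 6.95 to 7.05).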

How the results depend on the processing

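Of 1196 values of named genes under the alternatives, 1042 kept direction and side of the threshold, 131 no longer passed, 13 newly passed and 10 turned sign. The turned signs were those of Kcne1 with array weights (0.0069), Kcnj13 (0.0079 with median centring, 0.011 without PTC tumour 2, 0.023 without ATC tumour 2), Kcna3 without ATC tumour 4 (0.04), Kcnf1 without ATC tumour 1 (−0.023) and Ano1 (0.093 with array weights, 0.027 without PTC tumour 1, 0.13 without ATC tumour 4, 0.08 without ATC tumour 5). With a tumour left out, differences ran from −0.098 to 0.023 for Kcnj13, −0.11 to 0.04 for Kcna3, −0.023 to 0.20 for Kcnf1 and −0.31 to 0.13 for Ano1. Kcnq1, Kcnj15, Kcnk1, Kcnj16, Kcnmb1, Kcnma1, Kcnc4, Kcnn4 and Kcnk6 passed under every alternative run. The 14 potassium channel calls became 10 to 14. The 6 rises became 3 with the replicate block, 2 with all probe sets tested and 2 to 5 with a tumour left out. The block lost Kcnb2, Kcnj10 and Kcnk13 and added Kcnk5. Testing all probe sets lost these 3 and Kcnab1, and the muscle covariate lost Kcnj10 and Kcnk13. The calls of Tshr, Iyd, Slc26a7, Slc26a4, Lrrc52, Fxyd1 and Fxyd4 ended with the block and with array weights, that of Lrrc26 with the block and with all probe sets tested, and those of Atp1b1 and Atp1a4 with all probe sets tested and with the muscle covariate. Other settings also ended those of Slc26a4, Lrrc52, Atp1b1 and Atp1a4. The adjusted p of these lost calls was 0.0503 to 0.108. The 5 iodide uptake calls became 2 with the replicate block, 2 with array weights and 1 to 6 with a tumour left out. The 7 sodium pump calls became 4 to 7 with a tumour left out. The cause of these moves was not tested. Same-numbered tumours had correlations of deviations of −0.09 to 0.12, and 1 of 5 numbers matched best with itself. Such values cannot show whether the tumours were paired, and the main test treated them as unpaired. Kcnip3 without PTC tumour 2 (−0.69), Kcnk5 without PTC tumour 3 or ATC tumour 5 (−0.33 each) and Kcnc1 without ATC tumour 4 (−0.23) newly passed. The number of arrays limits the precision.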
